A study of Rattus norvegicus with 8 samples.

Results

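Livers of rats given hydrogen water were examined for the genes of 7 carrier families that move amino acids across the plasma membrane. A gene was included when the single symbol of a probe set began with Slc1a, Slc3a, Slc6a, Slc7a, Slc36a, Slc38a or Slc43a followed by a digit, and where a gene had several, the probe set of the highest mean over the 8 arrays stands for it. This gave 53 of the 14217 genes with a single symbol. The rats were male Sprague-Dawley, an outbred strain, and were 8 weeks old at sampling. For 4 weeks the control group drank sterilized distilled water and the hydrogen water group drank water with 0.7 mM dissolved hydrogen, both freely and on the same diet. Each group of 8 animals is represented by 4 arrays of total liver RNA. Which animals the arrays hold, and whether RNA was pooled, is not in the labels, and the p-values therefore speak only for the variation among arrays.

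Amino acid carriers set which amino acids the liver takes from portal blood and which it gives back. Sodium-coupled carriers (the Slc1, Slc6 and most Slc38 families) accumulate their substrates, whereas Slc7 light chains mostly exchange 1 amino acid for another and need an Slc3 heavy chain to reach the cell surface. Slc43 carriers let large neutral amino acids pass down their gradient, and Slc36 carriers use protons. Several of these genes are known to be induced by the transcription factor ATF4 when amino acids are scarce, through a composite C/EBP-ATF site. The symbol rule also takes in genes that the family name does not describe well. Slc6a2, Slc6a3 and Slc6a4 carry noradrenaline, dopamine and serotonin, Slc6a8 carries creatine, Slc38a7 and Slc38a9 act at the lysosome, and Slc7a6os is no carrier but the gene beside Slc7a6.

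No carrier gene passed the test between the groups. Of the 53 genes, 19 had a mean signal at or above the median of all probe sets and were tested, and 0 of the 19 passed an adjusted p of 0.05 in limma, where 128 of 15521 probe sets, or 0.825%, did. An unadjusted p under 0.05 was reached by 2 of the 19, Slc3a1 and Slc38a3, or 10.5%, against 12.5% of all tested probe sets. The median change of the 19 was 0.00 on the log2 scale, equal to the 0.00 of all tested probe sets, with 9 genes higher and 10 lower after hydrogen water. The 95% interval of the change lay within 2-fold in both directions for 17 of the 19, and reached past it for Slc38a2 and Slc1a4. The intervals are given per gene and are not adjusted for their number, and a p above the threshold does not show that levels were equal.

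**Figure D1:**
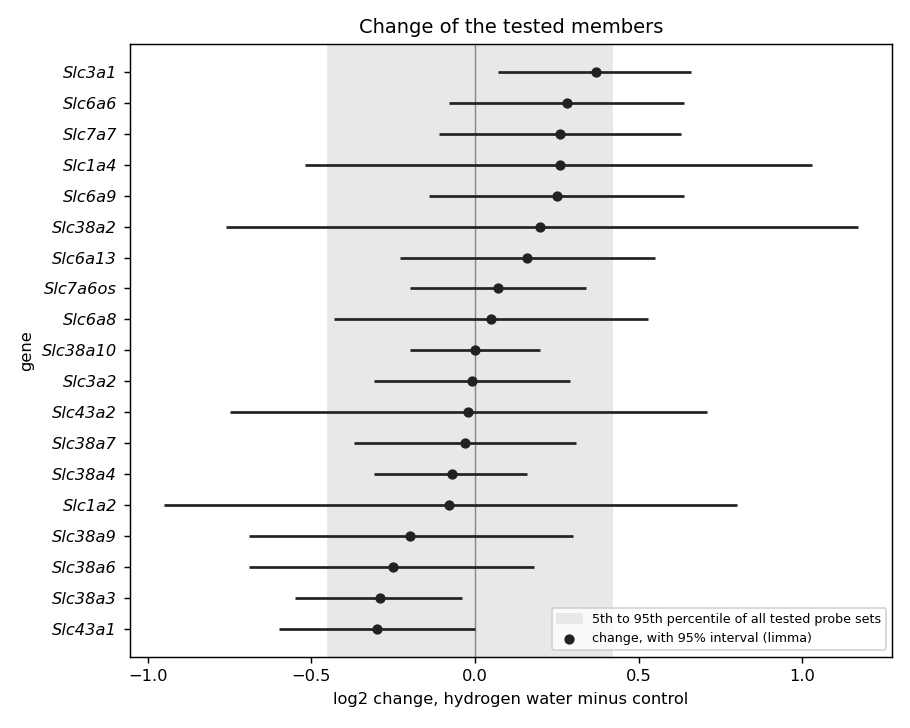
Change of the 19 tested genes in hydrogen water against control livers. The horizontal axis gives the log2 change with its 95% interval from limma, 4 arrays per group, and the grey band spans the 5th to 95th percentile of all tested probe sets (-0.45 to 0.42). All 19 changes lie between -0.30 and 0.37, inside the band.

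The promoters of the carrier genes were searched for the composite site, written TGATGNAA, on both strands of the 250 bases before the RefSeq start (build GRCr8). Promoters were found for 41 of the 53 genes, and 3 of the 41 held the site (7.32%), against 3.40% of 33469 promoters. The latter counts every entry of the promoter reference, while each carrier gene counts once. The share of the carriers rests on 3 matches, and the difference was not tested. The stretches around these matches are shown because the site is the best known regulatory sequence of this group of genes. Capitals mark the matched letters in windows of 60 bases.
Slc38a1 (chr7:129681510-129681569, minus strand): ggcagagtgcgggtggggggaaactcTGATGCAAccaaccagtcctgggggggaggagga
Slc7a1 (chr12:11664428-11664487, plus strand): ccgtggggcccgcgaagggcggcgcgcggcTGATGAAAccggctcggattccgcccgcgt
Slc1a4 (chr14:98761753-98761812, minus strand): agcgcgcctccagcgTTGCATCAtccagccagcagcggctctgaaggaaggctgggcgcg
The match began 142 bases before the start in Slc38a1, 30 in Slc7a1 and 235 in Slc1a4, and in Slc1a4 it lay in the reverse orientation. A match is a description of the letters, not evidence of a bound site. Of the 3 genes, Slc1a4 alone was tested, and its values are given with its family. In the RefSeq gene order Slc38a1, Slc38a2 and Slc38a4 are neighbours, as are Slc36a3, Slc36a2 and Slc36a1, Slc6a20b and Slc6a20a, and Slc7a6 and Slc7a6os.

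The families differed in how many of their genes reached the median signal. The Slc38a family had 7 of 9 genes at or above it, and both Slc3a and both Slc43a genes were there too. Slc1a had 2 of 6, Slc6a 4 of 16, Slc7a 2 of 15 and Slc36a 0 of 3. The median of all probe sets was a mean log2 signal of 4.42, on the log2 scale after quantile normalization and a pseudocount of 2.05, which is used for all levels here. Slc38a9, at 4.70, lay just above it, and Slc7a2, at 4.39, just below. Detection calls were not used, so a gene below the median cannot be set apart from background, and a low signal may also reflect a weak probe set. Signals of different probe sets are not compared with each other.

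**Figure D2:**
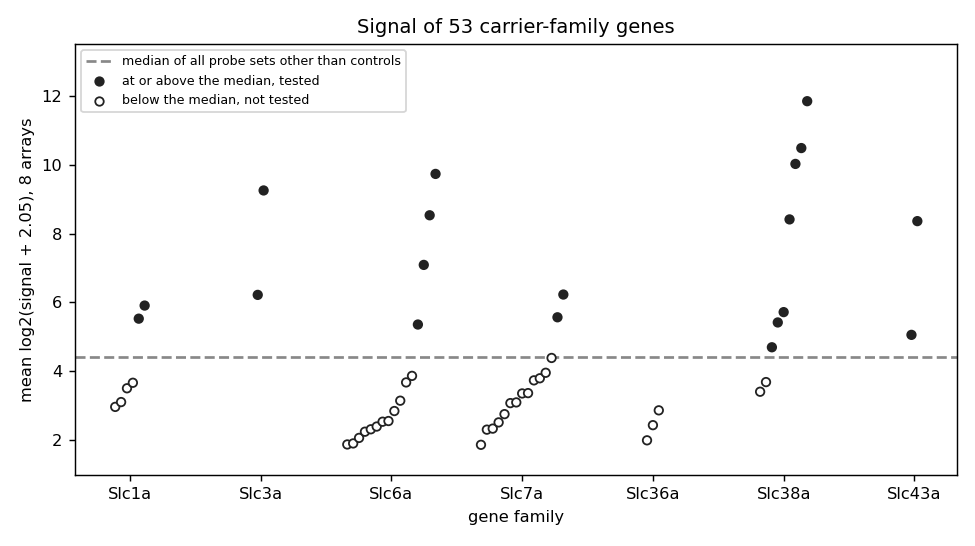
Mean log2 signal over 8 arrays of each of the 53 genes, grouped by family. Filled points are the 19 tested genes, open points the 34 genes below the median of 4.42 (dashed line). Most of the open points belong to Slc6a (12) and Slc7a (13).

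None of the 7 tested neutral carriers of the Slc38a family passed in limma. The 1 gene with an unadjusted p under 0.05 was Slc38a3, the system N carrier that moves glutamine, asparagine and histidine in hepatocytes. Its log2 signals were 10.58, 10.81, 10.66 and 10.48 on control arrays 1 to 4 and 10.35, 10.08, 10.64 and 10.27 on hydrogen water arrays 1 to 4. The groups overlapped at hydrogen water array 3, which lay among the controls, and the other 3 hydrogen water arrays lay below all controls. The difference was -0.29 ± 0.12 (SE; limma adjusted p = 0.324), with a 95% interval from -0.55 to -0.04 that is not adjusted for the number of genes.

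Slc38a4, a system A carrier enriched in liver, read 11.81, 11.68, 12.19 and 11.83 in controls and 11.74, 11.67, 11.96 and 11.87 with hydrogen water. The groups overlapped almost completely, and the difference of -0.07 ± 0.11 (SE; limma adjusted p = 0.854) had an interval from -0.31 to 0.16, that is from 0.809 to 1.12 times the control level. Relative to the median of all probe sets its sign turned positive, to 0.02, without normalization and with median or spike-in scaling.

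Slc38a2, the system A carrier that is induced by amino acid shortage and by hormones, varied widely within both groups. It read 9.55, 10.07, 10.88 and 9.15 in controls and 11.20, 9.53, 10.49 and 9.24 with hydrogen water. Control array 3 and hydrogen water arrays 1 and 3 were high, and arrays 4 of both groups were lowest. The difference was 0.20 ± 0.44 (SE; limma adjusted p = 0.910), with an interval from -0.76 to 1.17, so that a 2-fold rise is not outside it. The difference was -0.05 without control array 4 and -0.16 without hydrogen water array 1.

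Slc38a6, a less studied member, read 5.54, 5.31, 6.08 and 5.25 in controls and 5.17, 5.22, 5.32 and 5.44 with hydrogen water, overlapping, with a difference of -0.25 ± 0.20 (SE; limma adjusted p = 0.678). Control array 3 was the highest of the 8. The lysosomal Slc38a9, which signals arginine to the growth kinase complex mTORC1, differed by -0.20 ± 0.22 and the lysosomal glutamine carrier Slc38a7 by -0.03 ± 0.15. Slc38a10 showed the narrowest spread of the family, with all 8 arrays between 8.30 and 8.54 and a difference of 0.00 ± 0.09. Of the 7 tested genes, 6 had a lower mean with hydrogen water. Of these 6, Slc38a4, Slc38a7, Slc38a9 and Slc38a10 lay within 1 SE of 0. Slc38a4, Slc38a6, Slc38a7 and Slc38a10 did not keep a negative sign in every setting tried. Slc38a1 and Slc38a5 lay below the median signal, between 2.90 and 4.36 over all arrays.

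**Figure D3:**
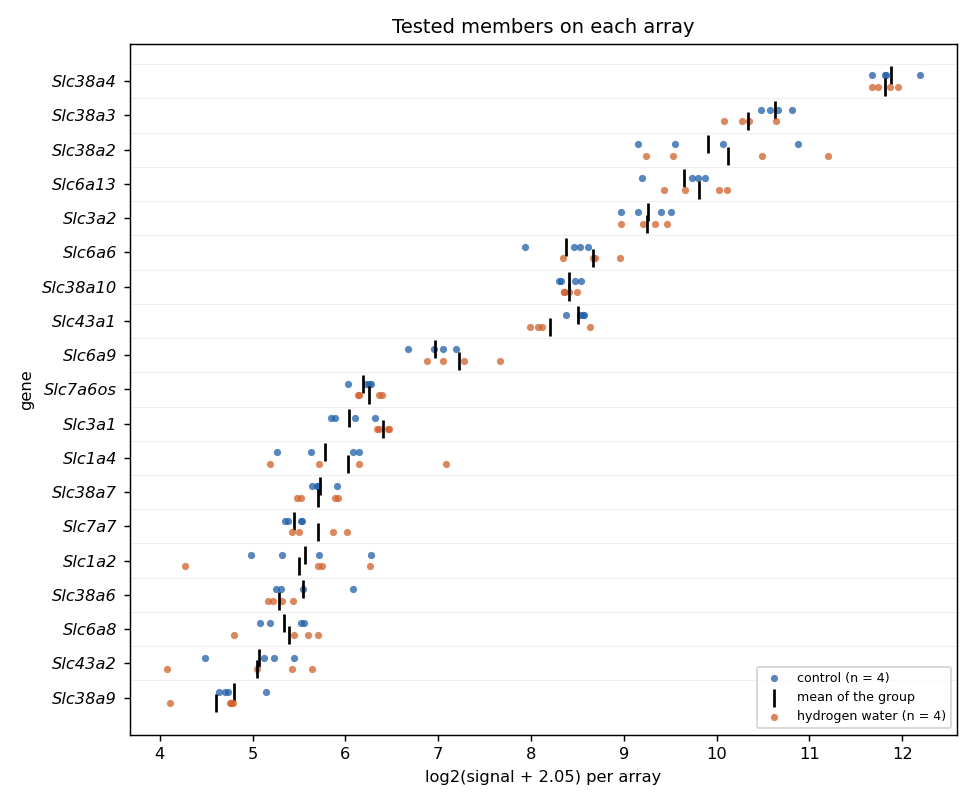
Log2 signal of the 19 tested genes on each array, control in blue and hydrogen water in orange, with the mean of each group of 4 as a black bar. Slc3a1 is the only gene whose groups do not overlap. Slc38a2, Slc1a2 and Slc1a4 show the broadest scatter within groups, and the order of the genes says nothing on their relative abundance.

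Neither of the heavy chains that carry Slc7 light chains to the surface passed. Slc3a1, the partner of Slc7a9 in cystine and dibasic amino acid uptake, best known from kidney and gut, read 6.10, 6.32, 5.89 and 5.85 in controls and 6.36, 6.46, 6.47 and 6.34 with hydrogen water. All 4 hydrogen water arrays lay above all 4 controls, the nearest pair being 6.32 and 6.34. Groups without overlap were found at 7.48% of all tested probe sets and at 1 of the 19 carrier genes. The difference of 0.37 ± 0.13 (SE), or 1.29-fold, had the smallest p of the carriers and did not pass (limma adjusted p = 0.274). Without normalization between arrays the difference was 0.01, while all probe sets then shifted by a median of -0.33. Its light chain Slc7a9 lay below the median signal on average, with values from 1.32 to 3.77.

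Slc3a2, the CD98 heavy chain that pairs with Slc7a5, Slc7a6, Slc7a7, Slc7a8, Slc7a10 and Slc7a11, read 8.97, 9.51, 9.40 and 9.15 in controls and 9.34, 9.47, 8.97 and 9.21 with hydrogen water. The groups covered the same range, and the difference was -0.01 ± 0.14 (SE; limma adjusted p = 0.991), with an interval from -0.31 to 0.29. Of its light chains, only Slc7a7 reached the median signal. Slc7a7, which with Slc3a2 exports cationic amino acids, read 5.35, 5.38, 5.53 and 5.52 in controls and 5.87, 5.42, 6.02 and 5.50 with hydrogen water. Hydrogen water arrays 1 and 3 lay above all controls and arrays 2 and 4 among them, with a difference of 0.26 ± 0.17 (SE; limma adjusted p = 0.596). Slc7a6os differed by 0.07 ± 0.12.

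The other 13 Slc7a genes were below the median signal and are described without a test. Slc7a2, the cationic amino acid carrier of hepatocytes, read 4.67, 4.60, 5.01 and 3.97 in controls and 5.32, 4.02, 3.25 and 4.30 with hydrogen water. Slc7a5, the system L carrier of large neutral amino acids, read 4.41, 4.42, 4.58 and 3.92 in controls and 3.53, 4.21, 2.61 and 4.02 with hydrogen water. In both genes hydrogen water array 3 was the lowest of the 8, and the groups overlapped. Slc7a6, a cationic and neutral exchanger, had group means of 4.19 ± 0.23 and 3.42 ± 0.68 (SD, n = 4 each), in control and hydrogen water. The cystine and glutamate exchanger Slc7a11, an often used sign of the oxidant response, lay between 1.35 and 3.63 on all arrays. The ubiquitous cationic carrier Slc7a1 ranged from 1.71 to 4.38, and Slc7a3, Slc7a4, Slc7a8, Slc7a10, Slc7a12, Slc7a13 and Slc7a14 had means from 1.87 to 3.74.

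The facilitative Slc43a carriers of branched-chain and aromatic amino acids had 1 gene near the threshold of the unadjusted test. Slc43a1 read 8.38, 8.57, 8.56 and 8.53 in controls and 8.08, 8.12, 8.64 and 7.99 with hydrogen water. Hydrogen water array 3 was the highest of all 8 arrays and the other 3 lay below every control. The difference was -0.30 ± 0.14 (SE; limma adjusted p = 0.403, unadjusted p = 0.0512), and it was -0.44 without hydrogen water array 3 (limma adjusted p = 0.105, within a range of 0.0704 to 0.631 over all settings tried). Slc43a2 read 5.12, 5.23, 5.45 and 4.49 in controls and 5.42, 5.64, 4.08 and 5.05 with hydrogen water, a difference of -0.02 ± 0.33. Its lowest values were control array 4 and hydrogen water array 3. The second probe set of Slc43a2, with a mean of 4.34 just below the median signal, was instead highest on hydrogen water array 3, at 4.95.

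Among the Slc1a carriers of acidic and small neutral amino acids, 2 of 6 genes were tested. Slc1a2, the glutamate carrier that in liver marks hepatocytes around the central vein, read 4.98, 6.28, 5.72 and 5.32 in controls and 5.75, 4.27, 6.27 and 5.70 with hydrogen water. Control array 2 and hydrogen water array 3 were high and hydrogen water array 2 was low, and the difference of -0.08 ± 0.40 (SE; limma adjusted p = 0.973) turned to 0.33 without hydrogen water array 2 and to 0.16 without control array 2. Slc1a4, which carries alanine, serine and cysteine, read 5.26, 6.15, 5.63 and 6.08 in controls and 5.72, 5.19, 7.08 and 6.15 with hydrogen water. Its highest value was hydrogen water array 3. The difference of 0.26 ± 0.35 (SE; limma adjusted p = 0.841) became -0.09 without that array. The glutamine carrier Slc1a5 and the glutamate carriers Slc1a1, Slc1a3 and Slc1a6 lay below the median, with values between 1.35 and 4.57.

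The 4 tested Slc6a genes all had a higher mean with hydrogen water, without passing. Relative to the median of all probe sets they kept that sign under the 4 other scalings. Of these, no normalization and median centring differ only by a constant per array, so they give the same relative values and are not separate checks. Not set against that median, all 4 genes were lower without normalization, where all probe sets shifted by a median of -0.33. Slc6a6, the taurine carrier, read 8.53, 7.94, 8.61 and 8.46 in controls and 8.35, 8.69, 8.96 and 8.67 with hydrogen water. Control array 2 was the lowest and 3 of 4 hydrogen water arrays exceeded all controls, with a difference of 0.28 ± 0.16 (SE; limma adjusted p = 0.539). Its second probe set differed by 0.29 ± 0.24. Slc6a9, the glycine carrier GlyT1, read 7.19, 6.95, 6.68 and 7.05 in controls and 7.67, 7.28, 7.05 and 6.88 with hydrogen water, a difference of 0.25 ± 0.18 (SE; limma adjusted p = 0.635). Hydrogen water arrays 1 and 2 exceeded all controls and arrays 3 and 4 did not. The other probe sets of Slc6a9 differed by 0.45 ± 0.21 and 0.47 ± 0.26, also without passing (limma adjusted p = 0.419 and 0.522).

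Slc6a13, a carrier of GABA and taurine found in liver and kidney, read 9.87, 9.73, 9.20 and 9.80 in controls and 9.66, 10.03, 9.43 and 10.11 with hydrogen water. Control array 3 was the lowest and the groups overlapped, with a difference of 0.16 ± 0.18 (SE; limma adjusted p = 0.791). The creatine carrier Slc6a8 differed by 0.05 ± 0.22 and its second probe set by -0.05 ± 0.19. The other 12 Slc6a genes lay below the median. They include the carriers known mainly from nerve cells, among them Slc6a2, Slc6a3, Slc6a4, the glycine carrier Slc6a5, the proline carrier Slc6a7, the GABA carrier Slc6a11, and Slc6a15 and Slc6a17. Their means ran from 1.88 to 3.68. The epithelial carriers Slc6a14 and Slc6a18 had means of 2.56 and 2.54, and the imino acid carriers Slc6a20a and Slc6a20b of 3.87 and 1.91.

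The proton-coupled carriers Slc36a1, Slc36a2 and Slc36a3 were all below the median, with values from 1.30 to 3.50 over the 8 arrays. When the filter on signal was left out, the 34 genes below the median were tested as well, and 0 passed (limma, lowest adjusted p = 0.556), with 16 higher and 18 lower. In that fit 108 of 31042 probe sets passed, or 0.348%. An unadjusted p under 0.05 was reached by 8.97% of all probe sets and by 1 of the 34 genes, Slc6a20a, whose mean was 3.46 ± 0.65 (SD, n = 4) in control livers and 4.28 ± 0.34 (SD, n = 4) after hydrogen water. The 19 probe sets of these genes beyond those used were read as a check, and 4 of them reached the median signal, those of Slc6a6, Slc6a8 and Slc6a9 given with their genes.

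The spread within groups set some carriers apart. The pooled standard deviation within groups was 0.83 for Slc38a2, 0.72 for Slc1a2, 0.64 for Slc1a4 and 0.57 for Slc43a2, against a median of 0.28 for the 19 genes and 0.22 for all tested probe sets. These 4 genes lay above the 95th percentile of all tested probe sets. Spread can depend on signal, so each was also set among probe sets within 0.5 of its mean log2 signal, where Slc38a2 was at percentile 98.5 of 749 probe sets, Slc1a2 at 98.4, Slc1a4 at 98.2 and Slc43a2 at 93.4. At the other end, Slc38a10 was at percentile 14.0 of its neighbours and Slc7a6os at 8.78.

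**Figure D4:**
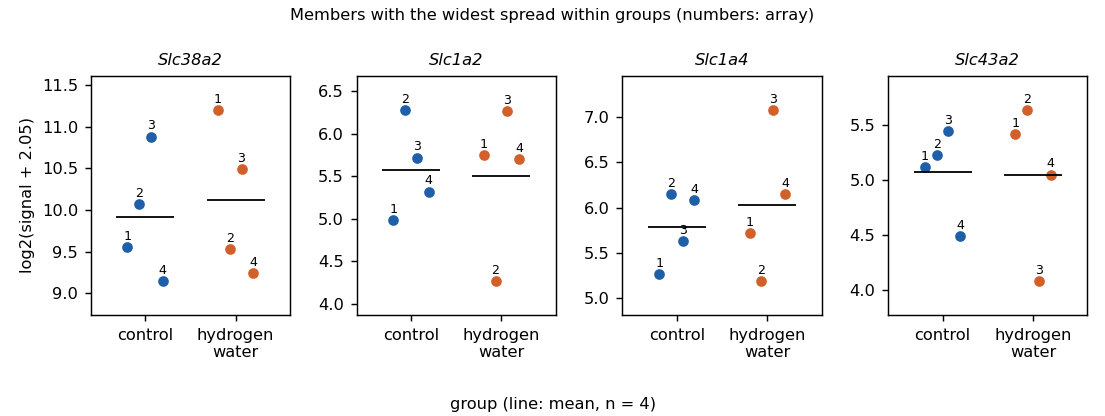
Log2 signal of Slc38a2, Slc1a2, Slc1a4 and Slc43a2 on each array, numbered within its group, with the mean of 4 as a line. The arrays that were high for 1 gene were not the same for all. Hydrogen water array 3 was highest for Slc1a4 and lowest for the probe set used for Slc43a2, whose second probe set was highest there.

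Genes around amino acid transport were described from 4 lists. Of 20 other carriers of amino acids and peptides, outside the 7 families, 12 were tested and 0 passed in limma. Their median change was 0.09, and 3 had an unadjusted p under 0.05, against 12.5% of all tested probe sets. Slc25a29, a mitochondrial carrier of basic amino acids, differed by 0.72 ± 0.22 (SE; limma adjusted p = 0.184), with controls from 5.64 to 5.97 and hydrogen water from 6.10 to 7.17. The mitochondrial glutamate carrier Slc25a22 differed by 0.34 ± 0.13 and the lysosomal cystine carrier Ctns by 0.50 ± 0.19, and the groups overlapped at both genes.

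Of 30 genes of the amino acid response, 23 were tested and 0 passed, with a median change of -0.04. An unadjusted p under 0.05 was reached by 5 of the 23, against 12.5% of all tested probe sets. Atf4, the factor named above, read 10.33, 10.80, 10.44 and 10.60 in controls and 9.97, 10.13, 10.09 and 9.90 with hydrogen water. All hydrogen water arrays lay below all controls, and groups without overlap were found at 7.48% of all tested probe sets. Atf4 differed by -0.51 ± 0.10 (SE) and did not pass (limma adjusted p = 0.0513), and it was not followed under the other settings. Its relative Atf5 differed by -0.29 ± 0.06 (SE; limma adjusted p = 0.0661), also without overlap. The stress sensor Sesn2 differed by 0.94 ± 0.27 (SE; limma adjusted p = 0.150), and its groups overlapped. The asparagine synthetase gene Asns and the serine synthesis genes Phgdh and Psat1, often used as readouts of this response, were below the median signal.

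Amino acid breakdown and the urea cycle were covered by 42 tested genes, of which 0 passed, with a median change of -0.02. An unadjusted p under 0.05 was reached by 2 of the 42, against 12.5% of all tested probe sets. Tdo2, which opens the tryptophan ring, differed by 0.50 ± 0.15 (SE; limma adjusted p = 0.175), glutamate dehydrogenase Glud1 by 0.16 ± 0.07 and arginase Arg1 by 0.16 ± 0.08. Of 27 tested genes of amino acid sensing and mTORC1, 0 passed, with a median of -0.02. Against the 12.5% of all tested probe sets, 3 of the 27 had an unadjusted p under 0.05. These were Sesn2, the translation repressor Eif4ebp1, which differed by 0.25 ± 0.08, and the Ragulator subunit Lamtor5, by -0.18 ± 0.07.

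The arrays carried the markers of liver. All 10 hepatocyte markers on the array reached the median signal, with a summed signal of 75500 to 79300 in controls and 76200 to 78200 with hydrogen water, and 0 passed. In the list of hepatocytes around the central vein, where Slc1a2 is known to be expressed, 6 of 7 markers were tested and 0 passed, with a median change of -0.06. The summed signal was 14900 to 17000 in controls and 14500 to 16600 with hydrogen water. Of the 13 marker lists, the endothelial one alone held genes with an unadjusted p under 0.05. It had 2 of 6 tested, against 12.5% of all tested probe sets. The 2 were the sinusoidal receptors Stab2, which differed by 0.42 ± 0.13 (SE; limma adjusted p = 0.205), and Lyve1, by 0.38 ± 0.13 (SE; limma adjusted p = 0.234). The groups overlapped at both. The other tested endothelial markers had smaller differences, in both directions. Fcgr2b differed by 0.13 ± 0.11, Tek by 0.00 ± 0.14, Pecam1 by -0.04 ± 0.17 and Kdr by -0.10 ± 0.10. The summed signal of that list was 2540 to 2870 in controls and 2710 to 3280 with hydrogen water, and its part in the carriers' values was not tested. Over all 13 lists 55 genes were tested and 0 passed in limma. Of the 6 markers of nerve cells and glia, 4 were below the median, Snap25, Tubb3, Syt1 and Stmn2. In bulk tissue, fewer cells of a type and less RNA per cell cannot be told apart.

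Hydrogen water arrays were dimmer on average, a difference that did not pass the test. Per array the median of the deposited signals lay between 17.2 and 26.8. Its mean was 23.0 ± 3.46 (SD, n = 4) in controls and 18.7 ± 1.46 (SD, n = 4) in hydrogen water livers, with a two-sided exact permutation p of 0.0857, where 0.0286 is the smallest possible. The spike-in probe sets were also dimmer, with a mean deposited log2 signal of 9.44 ± 0.30 (SD, n = 4) in controls and 9.05 ± 0.08 (SD, n = 4) with hydrogen water (two-sided exact permutation p = 0.0857). The log2 ratio of 3′ to 5′ Gapdh signal was 0.22 ± 0.10 (SD, n = 4) and 0.38 ± 0.08 (SD, n = 4), with a two-sided exact permutation p of 0.0571. With brightness as a covariate, 0 of the 19 carriers passed in limma (lowest adjusted p = 0.326, for Slc38a3). Slc3a1 then differed by 0.28, the 19 changes ran from -0.61 for Slc1a2 to 0.52 for Slc6a6, and the sign turned for Slc1a4, Slc38a2, Slc38a4, Slc38a6, Slc43a2 and Slc6a8. The part of the Gapdh ratio was not tested.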

How the data were processed

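Per the labels' protocols, biotin-labelled cRNA made from total liver RNA was measured on Affymetrix arrays. The authors made the deposited values, intensities on a linear scale for 31099 probe sets, with MAS5, per the submitters' processing notes. The version and scaling target of MAS5 were not given in the sources used here, and no detection calls were used.

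The array medians showed no common scale, so the 8 arrays were quantile-normalized, which hides any shift of most transcripts in 1 direction. A pseudocount of 2.05 (10% of the median of 20.5) was added before log2, so changes of dim probe sets are understated. The 57 control probe sets were left out. The 15521 probe sets at or above the median mean log2 signal were compared in limma 3.58.1 (R 4.3.3), by lmFit followed by eBayes with a trended prior and Benjamini-Hochberg adjustment over all of them and a threshold of 0.05. SE and 95% intervals come from this fit, and the number of arrays limits the precision. The alternatives tried were other scalings, pseudocounts, filters and priors, a block for the replicate number, weighting of arrays, array brightness as a covariate, gene means and leaving out each array. The steps were tested on simulated data.

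Symbols came from the platform annotation, held singly by 20826 probe sets, and all 53 members matched RefSeq by Entrez ID. Members, lists and rules were chosen with earlier results of these data known. All tested members are named. Values per array are given for the 8 with the smallest p and for carriers chosen for their role, and also for Slc1a4 and Slc43a2, picked after their values were seen. Of each of the 4 lists around amino acid transport, the 3 with the smallest p are given. Of the 13 marker lists, the genes with an unadjusted p under 0.05 and the other tested endothelial markers are given.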

Additional observations from a re-analysis of the deposited data

Results flagged for a closer look

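Within groups, 1 array stood far from the others at 1 of the 38 gene and group combinations checked. The log2 signal of Slc38a9 was 4.11 on hydrogen water array 1, against 4.76 to 4.79 on the other 3 hydrogen water arrays, a gap of 0.951 of the whole range. Chance gives about 1 such value in 20 groups. Without hydrogen water array 1 the difference of Slc38a9 was -0.03, and it was -0.20 with all arrays. The cause of the low value was not tested.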

How the results depend on the processing

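No carrier passed under any of the 13 other settings or the 8 fits that left out 1 array, with 9 to 53 genes tested, and leaving out Slc7a6os changed their median to -0.01. The median of the tested carriers moved to -0.32 without normalization, where all probe sets moved by -0.33, and ran from -0.04 to 0.08 over the fits without 1 array. Of all probe sets, 505 passed without normalization, 64 with an untrended prior, 21 with array brightness as a covariate, 63 of 7109 genes with gene means, and 55 to 197 without 1 array. The share of these calls that were higher was 53.9%, and 4.16% without normalization, 29.4% with median centring and 70.8% with spike-in scaling.

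The sign of a carrier's change, none of which passed, turned in 20 of 233 values under other settings. Signs were taken after rounding, so Slc38a10, at 0.00, could not count as turned. It ran from -0.34 to 0.04 over these settings. Without normalization Slc1a4 was at -0.09, Slc38a2 at -0.10, Slc6a13 at -0.15, Slc6a6 at -0.06, Slc6a8 at -0.26, Slc6a9 at -0.10, Slc7a6os at -0.28 and Slc7a7 at -0.08. Median centring put Slc7a6os at -0.02, and spike-in scaling put Slc38a4 at 0.07 and Slc3a2 and Slc43a2 at 0.05 each. Array weights put Slc3a2 at 0.01 and Slc43a2 at 0.07. With brightness as a covariate, Slc1a4 was at -0.23, Slc38a2 at -0.03, Slc38a4 at 0.04, Slc38a6 at 0.01, Slc43a2 at 0.20 and Slc6a8 at -0.07. Over the fits without 1 array, Slc1a2 ran from -0.34 to 0.33, Slc1a4 from -0.09 to 0.54, Slc38a2 from -0.16 to 0.53, Slc38a4 from -0.14 to 0.03, Slc38a7 from -0.10 to 0.04, Slc3a2 from -0.10 to 0.08, Slc43a2 from -0.22 to 0.30 and Slc6a8 from -0.05 to 0.25. The cause was not tested.

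With the replicate number as a block 181 probe sets and 0 carriers passed. Deviations of same-numbered arrays correlated at -0.10, 0.04, 0.19 and 0.00, and those of differently numbered arrays from -0.19 to 0.13. So few correlations cannot show whether same-numbered arrays share more than a number. Signal over background limits the 34 genes below the median.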

Other observations

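Relations with genes of amino acid metabolism across the 8 arrays were looked for after the spread of Slc38a2, Slc1a2, Slc1a4 and Slc43a2 was seen. These 4 carriers with the widest spread were each set against 65 tested genes of the amino acid response and amino acid breakdown lists, 260 relations in all, and 0 passed after Benjamini-Hochberg adjustment. By Pearson's r the smallest p was that of Slc38a2 with Tat, the tyrosine aminotransferase induced by glucocorticoids and glucagon (Pearson r = 0.88, exact permutation p = 0.00422, adjusted p = 0.466; Spearman rho = 0.88, exact permutation p = 0.00724, adjusted p = 0.81). The r was 0.76 without the 2 arrays farthest from the median of Slc38a2, and 0.96 over deviations from the group means. By Spearman's rho the smallest p was that of Slc38a2 with the transcription factor gene Cebpb (rho = 0.93, exact permutation p = 0.00223, adjusted p = 0.58; r = 0.78, exact permutation p = 0.0233, adjusted p = 0.791), with r = 0.73 without the same 2 arrays. Tat read 10.67, 11.03, 11.61 and 10.22 in controls and 12.01, 11.34, 11.57 and 10.86 with hydrogen water, so that array 4 was lowest in each group for both genes.

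For Slc1a2 the smallest p by either measure was that with Mat1a, the methionine adenosyltransferase of liver, with r = 0.84 (exact permutation p = 0.00479, adjusted p = 0.466) and rho = 0.86 (exact permutation p = 0.0107, adjusted p = 0.81). The r was 0.64 without the 2 arrays farthest from the median of Slc1a2. Next by r was Sds, the serine dehydratase that is also induced by glucagon, with r = 0.87 (exact permutation p = 0.00538, adjusted p = 0.466) and rho = 0.81 (exact permutation p = 0.0218, adjusted p = 0.81). This r was 0.39 without the same 2 arrays, and 0.90 over deviations from the group means. Leaving out the arrays farthest from the median narrows the range of Slc1a2, which can itself lower r. Sds read 9.41, 11.35, 12.11 and 10.92 in controls and 10.98, 8.03, 11.76 and 10.13 with hydrogen water. Among the 19 tested genes, 171 pairs were compared and 0 passed (lowest adjusted p = 0.496 for r and 0.836 for rho, exact permutation). Array brightness and the Gapdh ratio gave 8 relations with the 4 carriers, of which 0 passed (lowest adjusted p = 0.941 for r and 0.778 for rho, exact permutation). The strongest by r was Slc1a4 with brightness (r = -0.54, rho = -0.43) and by rho Slc1a2 with brightness (r = -0.36, rho = -0.6).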
